A study of Drosophila melanogaster with 12 samples.

Results

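The genes described here are the nuclear-encoded subunits of the mitochondrial respiratory chain and ATP synthase in support cells of the Drosophila melanogaster ovarian niche. They were chosen by name: every gene whose BDGP6 symbol begins with ND-, UQCR-, COX and a number, or ATPsyn, together with SdhA to SdhD, RFeSP, Cyt-c1, blw, cype and levy. The rule matched 89 symbols, of which 88 had values among the 13726 genes with values, and ND-MNLL was not analysed here. Of the 88, complex I held 39, complex II 4, complex III 11, complex IV 18 and complex V 16. The symbols of 21 end in L, which marks a second copy, or paralog, of a subunit.

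The series asked how expression and splicing change as niche cells age, and what loss of the splicing factor Smu1 does to them. RNA was sequenced from sorted cells in 12 libraries, 2 in each of 6 groups. Terminal filament cells and cap cells, sorted together as TFCs-CpCs at 4 weeks (4w) and 1 week (1w), came from bab1-Gal4/UASp-tau::mGFP6 females and were gated on high GFP, since bab1-Gal4 is also weakly active in escort cells. Escort cells (ECs) at 4w and 1w were GFP-positive cells of LexAop-mCD8::GFP; ptc-LexA females. The last set held ECs of Smu1 RNAi females and of control females, raised at 18°C and kept at 29°C for 2 weeks after eclosion, so that their age is not matched to that of the ageing ECs. Both carried LexAop-mCD8::GFP, ptc-LexA, the temperature-sensitive Gal4 inhibitor tub-Gal80ts and ptc-Gal4, and the Smu1 RNAi females also carried UAS-Smu1 RNAi. Each library pooled the ovaries of many females, and far fewer TFCs-CpCs than ECs were sorted per experiment. By the study's methods the libraries of a group are biological replicates, with females of both ages divided at random from a shared batch in each ageing replicate. The labels do not say whether libraries with the same number shared a batch.

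In the respiratory chain, complex I takes electrons from NADH and complex II takes them from succinate. Complex III passes them on to cytochrome c and complex IV hands them to oxygen, while complexes I, III and IV pump protons out of the mitochondrial matrix. Complex V, the ATP synthase, lets the protons back in and makes ATP. Each complex but the second also needs subunits made from the mitochondrial genome, so most respiratory complexes are built from the products of both genomes. Core or catalytic subunits carry the redox centres or the ATP-making sites, and the supernumerary or accessory subunits around them are mostly small proteins that hold the complex together.

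The libraries held 12078227 to 52487930 counts, with the deepest in the TFCs-CpCs. The defining TFC-CpC gene en, a transcription factor, was at 71.4 and 298 cRPKM in 4w TFCs-CpCs and 13.95 and 20.3 cRPKM in 1w TFCs-CpCs, against at most 3.19 cRPKM in every EC library (cRPKM are reads scaled to the mappable length of the transcript and to library size). Against the labels ran hh, the gene of the Hedgehog ligand made by the same cells, at 25.3 and 106 cRPKM in 4w TFCs-CpCs and 5.35 and 7.65 cRPKM in 1w TFCs-CpCs, but at 83.0 to 118 cRPKM in the ageing ECs. Of the 5 TFC-CpC genes listed, inv was at 16.45 to 166 cRPKM in TFCs-CpCs and at most 3.69 cRPKM in ECs. LamC was at 164 to 447 cRPKM against at most 40.8 cRPKM. The gene bab1 was at 15.5 and 43.1 cRPKM in 4w TFCs-CpCs. In 1w TFCs-CpCs it was at 7.69 and 9.19 cRPKM and overlapped the EC libraries, at 4.99 to 9.52 cRPKM. Of the 3 EC genes listed, ptc, the Hedgehog receptor, was at 6.55 to 10.9 cRPKM in TFCs-CpCs and at 42.4 to 120 cRPKM in EC libraries. The signalling ligand Wnt4 was at 307 and 1390 cRPKM in 4w TFCs-CpCs against 371 and 257 cRPKM in 4w ECs, and at 76.9 and 79.0 cRPKM in 1w TFCs-CpCs against 354 and 235 cRPKM in 1w ECs. Wnt6, a related ligand, ran against the labels, at 117 and 474 cRPKM in 4w TFCs-CpCs and 34.4 and 29.2 cRPKM in 1w TFCs-CpCs, against 12.9 and 11.1 cRPKM in 4w ECs and 10.9 and 3.06 cRPKM in 1w ECs. Muscle genes (19 of 20 listed had values) summed to 1980 to 2230 cRPKM in 4w TFCs-CpCs and 55300 to 57600 cRPKM in 1w TFCs-CpCs, against 338 to 344 cRPKM in 4w ECs, 657 to 1520 cRPKM in 1w ECs and 261 to 336 cRPKM in the RNAi set. Late follicle cell genes (13 of 13) summed to 131000 cRPKM in replicate 1 and 25400 cRPKM in replicate 2 of 4w TFCs-CpCs, against 2410 to 7080 cRPKM in 1w TFCs-CpCs, 8670 to 10700 cRPKM in 4w ECs, 11200 to 14800 cRPKM in 1w ECs, 6560 to 11400 cRPKM in Smu1 RNAi ECs and 2700 to 4170 cRPKM in control ECs. The sum was thus above all EC libraries in the 4w TFCs-CpCs, but few genes carried it. Cp15 was at 73479 cRPKM in replicate 1 and 60.4 cRPKM in replicate 2, against 217 to 7965 cRPKM in EC libraries. Vm34Ca was at 32207 and 17257 cRPKM, against 873 to 5813 cRPKM, whereas Cp36 and Cp38 overlapped the EC libraries. In the 1w TFCs-CpCs the sum was below the ageing ECs and overlapped the RNAi set. Whether the muscle and late follicle cell RNA came from other cells, and its part in the results below, was not tested. The paper treats muscle genes as expressed by the niche cells, and reports MSP300 and muscleblind in TFCs-CpCs. Its purity checks looked for the germline gene vasa, which was not detected, and compared markers of TFCs-CpCs and ECs. In such bulk samples, fewer cells of a type and less RNA per cell cannot be told apart.

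The respiratory chain genes took 1.38% to 1.93% of all counts in the TFCs-CpCs, 1.91% to 2.21% in the ageing ECs and 2.51% to 2.70% in the RNAi set. Summed over the 88 genes, expression came to 21449 and 13894 cRPKM in 4w TFCs-CpCs, 15770 and 15361 cRPKM in 1w TFCs-CpCs, 26365 and 26439 cRPKM in 4w ECs, and 32733 and 26744 cRPKM in 1w ECs. The 2 Smu1 RNAi libraries came to 35672 and 39043 cRPKM, against 37380 and 37016 cRPKM in control ECs. Every TFC-CpC library lay below every EC library in this sum, and 1 of the 1w EC libraries was close to both 4w EC libraries.

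The complexes did not share this order alike. Complex IV, cytochrome c oxidase, summed to 4201 and 2350 cRPKM in 4w TFCs-CpCs and 2947 and 2706 cRPKM in 1w TFCs-CpCs, against 6498 and 7142 cRPKM in 4w ECs and 9441 and 7317 cRPKM in 1w ECs. Complex II, succinate dehydrogenase, was at 603 and 620 cRPKM in 4w TFCs-CpCs and 755 and 719 cRPKM in 1w TFCs-CpCs, against 681 and 587 cRPKM in 4w ECs and 692 and 667 cRPKM in 1w ECs. For complex IV the 2 cell populations did not overlap at either age, whereas complex II overlapped at 4w and was slightly higher in TFCs-CpCs at 1w. Complex V, in which the ring subunit ATPsynC weighs heavily, was at 8767 and 5493 cRPKM in 4w TFCs-CpCs and 6194 and 6393 cRPKM in 1w TFCs-CpCs, against 8551 and 8316 cRPKM in 4w ECs and 9638 and 8417 cRPKM in 1w ECs.

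**Figure D1:**
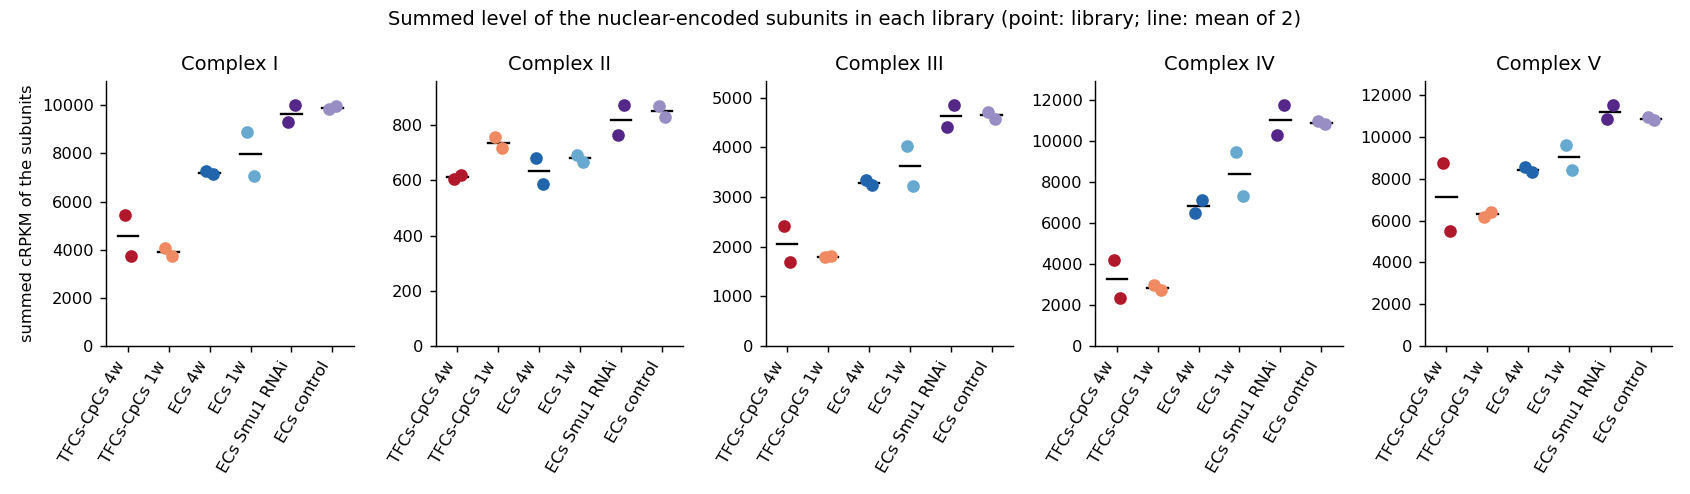
Summed cRPKM of the nuclear-encoded subunits of each complex (vertical axes, starting at 0) in each of the 12 libraries (points, by group along the horizontal axes). Complex II runs from 587 to 873 cRPKM over all libraries, whereas the TFC-CpC points of complex IV, 2350 to 4201 cRPKM, all sit below the EC points, 6498 to 11750 cRPKM.

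Among single subunits, ATPsynC, the membrane ring that turns as protons pass, had the highest mean over the libraries, 1772 cRPKM, and ranked first in 11 of 12 libraries (in Smu1 RNAi replicate 2 COX8 was higher, at 1965 against 1951 cRPKM). It was followed by ATPsynbeta, the catalytic subunit of the ATP synthase head, at 1027 cRPKM, by the small complex IV subunits COX8 at 1010 cRPKM and COX7B at 984.6 cRPKM, and by the small complex I subunit ND-MLRQ at 827.5 cRPKM. Apart from the paralogs and ND-B8, the lowest means belonged to the succinate-binding flavoprotein SdhA at 84.86 cRPKM, the accessory complex I subunit ND-AGGG at 85.59 cRPKM and the iron-sulphur core subunit ND-75 at 95.35 cRPKM, with ND-ASHI at 96.97 and ND-13B at 112.6 cRPKM next. Subunits of the same complex thus differed severalfold in RNA level within a library. ND-B8 was the exception among the 67 genes without a final L, with at most 13 counts in any library.

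The 21 paralogs were nearly silent. Their highest value in any library was 13.72 cRPKM, for ATPsynepsilonL in control ECs. COX4L was at 0 to 11.55 cRPKM where its partner COX4 was at 284.9 to 804.6 cRPKM, and ND-51L1 and ND-51L2 reached 2.53 and 3.0 cRPKM where ND-51, the NADH-binding flavoprotein of complex I, was at 98.04 to 260.9 cRPKM. ND-B14.5AL and COX6CL stayed at 3 counts or fewer in every library. Counts this low can be moved by few reads, and the sharing of reads with a partner gene was not tested. Of the 88 genes, 9 did not reach 10 counts in 2 libraries of any comparison and were not tested. Some genes also overlap others: all of the exon sequence of UQCR-14 lies antisense to CG32576 and 40.5% of that of UQCR-6.4 to POSH, and 35.0% of that of ND-MWFE is shared with Nrk and TppII. Their values are uncertain to that extent, since the use of strand in counting is not stated.

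**Figure D2:**
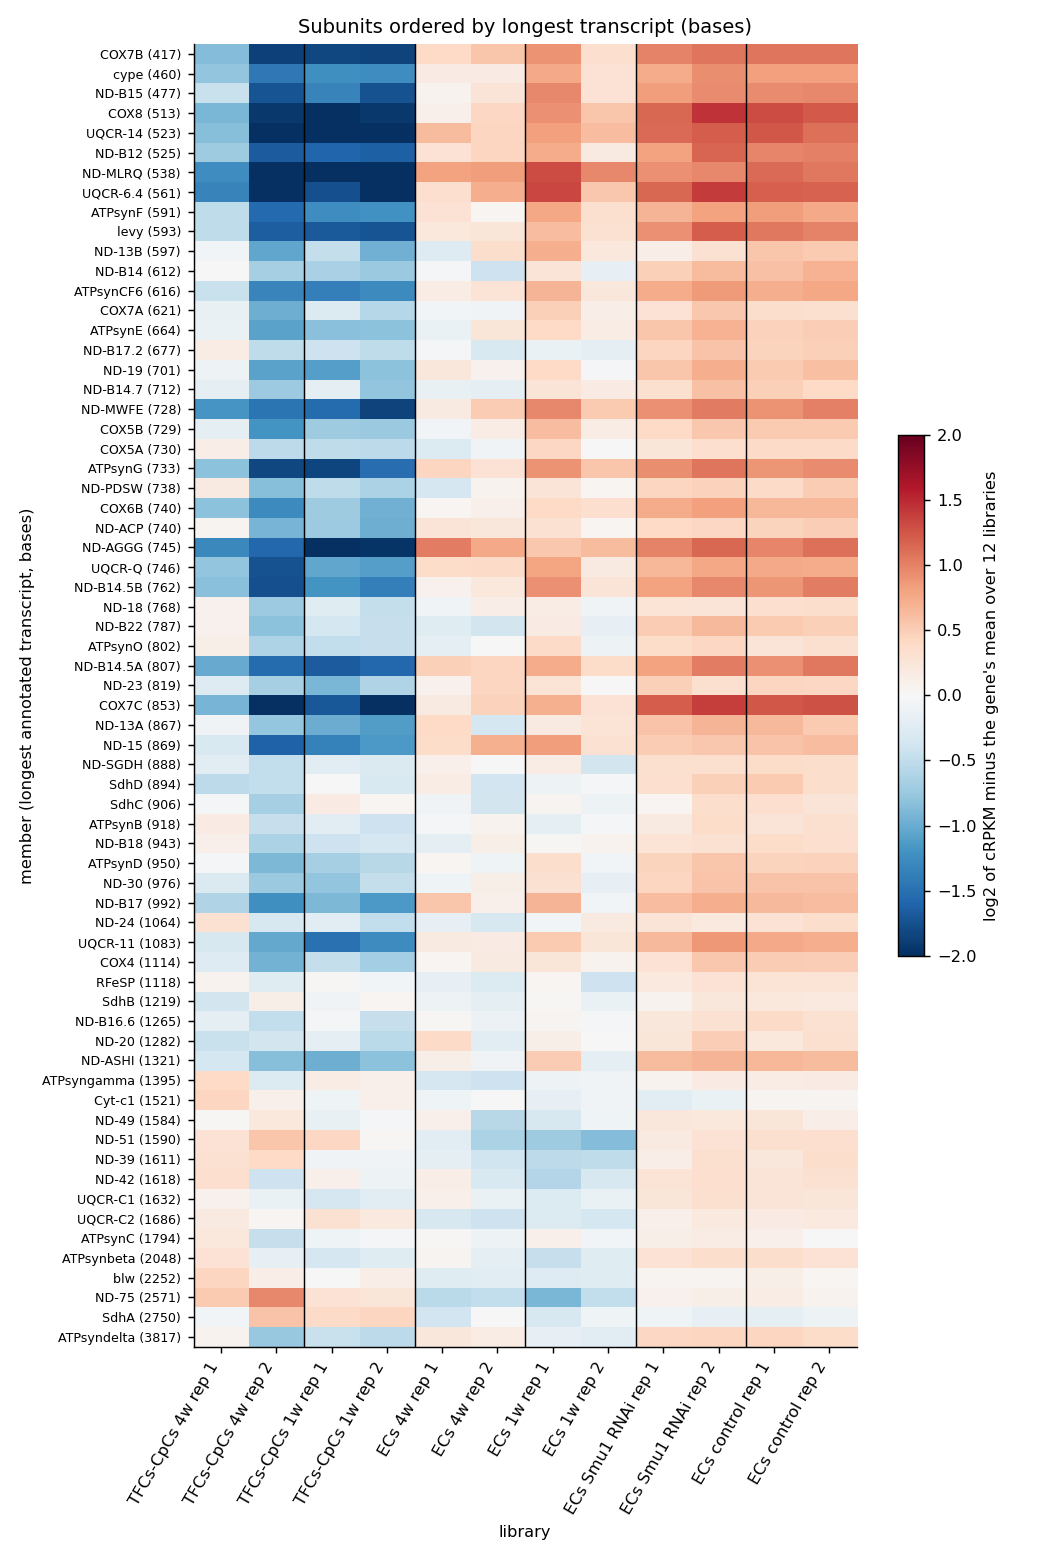
Heat map of the 66 subunits other than the paralogs and ND-B8 (lines, ordered by the length of the longest annotated transcript) in the 12 libraries (columns), coloured by log2 cRPKM minus the mean of that gene over the libraries. In TFC-CpC columns short transcripts lie mostly below their mean and the longest ones near or above it, and the RNAi set shows no such gradient between its 2 groups.

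The first question of the design is what ageing does in TFCs-CpCs. None of the 74 respiratory chain genes tested was called between 4w and 1w TFCs-CpCs, where 5.18% of all 9249 genes tested were, 1.25% higher and 3.92% lower (a call needs at least a 2-fold difference, 1 on the log2 scale, and an adjusted p below 0.1 in the quasi-likelihood test of edgeR, adjusted after Benjamini and Hochberg). None had an unadjusted p below 0.05 either, and DESeq2 and limma also called 0. All 67 genes without a final L lay within 1 log2 unit of no change, from -0.68 to 0.54. The median log2 fold change over the 74 was -0.04, beside 0.04 over all genes tested.

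Complex II had the lowest values. SdhC, a membrane anchor of succinate dehydrogenase, was at 253 and 163 cRPKM in 4w TFCs-CpCs, against 290.5 and 268 cRPKM in 1w TFCs-CpCs (log2 fold change -0.68 ± 0.39 SE, adjusted p = 0.480 by edgeR). SdhD, the other anchor, was at 119 and 121 cRPKM in 4w TFCs-CpCs and at 171 and 138 cRPKM in 1w TFCs-CpCs (-0.64 ± 0.34, adjusted p = 0.443). The 4w values lay below the 1w values for both, and the 4 complex II genes had a median of -0.51, but none of them passed the test. At the other end, COX8 was at 382 and 190 cRPKM in 4w TFCs-CpCs, against 146 and 189 cRPKM in 1w TFCs-CpCs (0.54 ± 0.45). UQCR-11, a small subunit of complex III, had 0.49 ± 0.39 and ND-13A, a zinc-binding complex I subunit, 0.42 ± 0.41. The paralogs COX4L (0 and 1 counts at 4w, 16 and 20 counts at 1w) and COX7CL (1 and 2 counts, against 18 and 16 counts) were too low for a fold change. UQCR-6.4L was at 7.39 and 5.49 cRPKM in 4w TFCs-CpCs, against 1.40 and 0.65 cRPKM in 1w TFCs-CpCs, with an adjusted p of 0.558.

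These values carry the spread between the 2 libraries of 4w TFCs-CpCs. Of the 66 subunits other than the paralogs and ND-B8, 58 were higher in replicate 1 than in replicate 2, by a median of 1.60-fold, and 12 differed by over 2-fold, beside 1.03-fold in 1w TFCs-CpCs. Replicate 1 was also the library with 131000 cRPKM of late follicle cell genes. Without replicate 1 the median log2 fold change of the respiratory chain genes was -0.43, and without replicate 2 it was 0.32. The complex II median lay between -0.62 and -0.25 with either left out and under all other alternatives tried, with no gene called. In cRPKM, 14 of the 74 genes had both 4w libraries above both 1w libraries, where 31.8% of all genes did, and 8 had both below, where 17.9% of all genes did.

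In ECs, ageing left the respiratory chain genes without a call as well. None of 76 genes tested was called between 4w and 1w ECs, where 0.103% of 10675 genes were (0.00937% higher and 0.0937% lower), none had an unadjusted p below 0.05, and DESeq2 and limma called 0. The 66 tested genes without a final L ranged from -0.40 to 0.46. The median over the 76 was -0.09, beside -0.03 over all genes. In cRPKM, 8 of the 76 genes had both 4w libraries above both 1w libraries (14.3% of all genes did) and 22 had both below (20.6% of all genes).

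The differences between 4w and 1w ECs were small, and apart from complex IV their signs were mixed within each complex. Of the 10 nuclear subunits of complex IV, 9 had lower estimates at 4w, with a median of -0.25. COX8, a small membrane subunit, was at 781 and 961 cRPKM in 4w ECs, against 1364 and 1069 cRPKM in 1w ECs (-0.40 ± 0.28, adjusted p = 0.999 by edgeR). The 7 core subunits of complex I had a median of 0.14 and its 25 tested supernumerary subunits -0.03. In complex V the 4 subunits of the head had 0.22 and the 8 of the stalk and membrane part -0.14, and in complex III the large subunits had 0.10 and the small ones -0.12. Among the core and head subunits, ND-51 was at 155 and 115.5 cRPKM in 4w ECs, against 109 and 98.0 cRPKM in 1w ECs (0.46 ± 0.30), and ATPsyndelta, a central stalk subunit counted here with the head, 35.6% of whose exon sequence lies antisense to CG2962, was at 641 and 605 cRPKM in 4w ECs, against 490.1 and 469 cRPKM in 1w ECs (0.45 ± 0.28). ATPsynbeta had 0.35 ± 0.27 and ND-42, an accessory complex I subunit, 0.45 ± 0.31, while ND-B14.5B had -0.38 ± 0.31. ND-51L2 was at 0 and 0.31 cRPKM in 4w ECs and at 3.0 and 2.80 cRPKM in 1w ECs, a difference of few counts with an adjusted p of 0.956. None of these differences passed the test. In 1w ECs, replicate 1 was above replicate 2 for 50 of 66 subunits, by a median of 1.2-fold, and the ageing estimates followed transcript length across the 66 genes (Spearman rho 0.68, and 0.36 without 1w replicate 1).

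For knockdown of Smu1, a splicing factor, the targeted gene was at 4.17 and 5.51 cRPKM in Smu1 RNAi ECs, against 26.4 and 23.6 cRPKM in control ECs, and fell by 2.34 on the log2 scale (SE 0.19, adjusted p = 6.43e-05 by edgeR's quasi-likelihood test). None of the 72 respiratory chain genes tested was called, where 1.11% of 9933 genes were (0.735% higher and 0.372% lower), and DESeq2 and limma called 0. These ECs gave the tightest estimates of the series: the 66 tested genes without a final L lay between -0.28 and 0.18, with a median over all 72 of 0.01, beside 0.00 over all genes. In cRPKM, 4 of the 72 genes had both RNAi libraries above both control libraries (17.0% of all genes did) and 17 had both below (24.2% of all genes).

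A single gene had an unadjusted p below 0.05. This was ND-13B, an accessory subunit of complex I, at 115.04 and 130.5 cRPKM in Smu1 RNAi ECs, against 154 and 152 cRPKM in control ECs (-0.28 ± 0.11, adjusted p = 0.383 by edgeR). Cyt-c1, the haem subunit of complex III that hands electrons to cytochrome c, was at 189 and 199 cRPKM in Smu1 RNAi ECs, against 227 and 229 cRPKM in control ECs (-0.20 ± 0.10, adjusted p = 0.537). Both were lower in each RNAi library than in each control library, and neither passed the test. The largest positive estimates with small p belonged to ATPsynE at 0.18 ± 0.11, COX6B at 0.15 ± 0.11, ND-20 at 0.15 ± 0.12 and ATPsynO at 0.14 ± 0.11. The paralogs COX5BL, whose exons lie wholly within those of Trmt6 on the other strand, and ATPsynbetaL had -1.26 ± 0.71 and -1.43 ± 0.82 at under 4 cRPKM. The 19 subunits named in every comparison, from ND-75 to ATPsynC, lay between -0.20 (Cyt-c1) and 0.15 (ND-20) here, between -0.40 (UQCR-C2) and 0.48 (levy) for ageing in TFCs-CpCs, and between -0.30 (COX5A) and 0.46 (ND-51) for ageing in ECs.

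**Figure D3:**
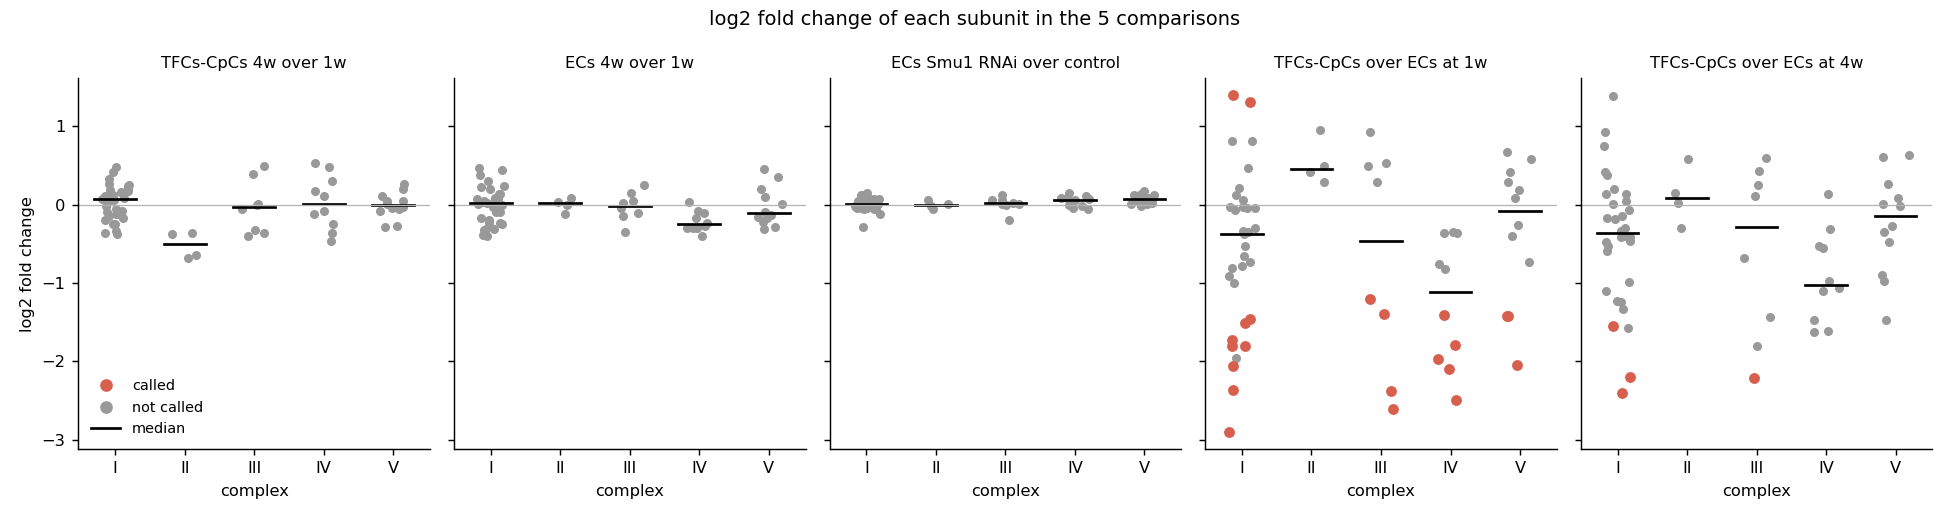
Log2 fold change (edgeR) of each tested respiratory chain gene without a final L (points) by complex in 5 comparisons, with called genes in red and medians as black lines. No point is red for ageing in either cell population or for Smu1 RNAi, whereas TFCs-CpCs over ECs has 20 genes called lower and 2 higher at 1w, and 4 lower at 4w.

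The clearest differences lay between the 2 cell populations. At 1w, 26 of 78 respiratory chain genes were called between TFCs-CpCs and ECs, where 31.2% of 10173 genes were, so the share was near that of all genes. The direction was uneven: 23 were lower in TFCs-CpCs (17.2% of all genes were) and 3 were higher (14.0% of all genes were). The median over the 78 was -0.59 on the log2 scale, beside -0.19 over all genes tested. In cRPKM, 56 of the 78 genes had both TFC-CpC libraries below both EC libraries, where 45.0% of all genes did, and 9 had both above, where 22.6% did. The TFCs-CpCs and ECs also came from different genotypes and sorts, and this cannot be told apart from cell type.

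ND-MLRQ, counted with complex I by its name and known in mammals as NDUFA4, which is also found with complex IV, was at 123 and 142 cRPKM in 1w TFCs-CpCs, against 1434 and 1125 cRPKM in 1w ECs (-2.90 ± 0.25, adjusted p = 0.00109, as below from the quasi-likelihood test of edgeR, adjusted after Benjamini and Hochberg). UQCR-6.4, a small subunit of complex III, was at 72.7 and 50.1 cRPKM in 1w TFCs-CpCs, against 622 and 355 cRPKM in 1w ECs (-2.60 ± 0.41, adjusted p = 0.00802). COX8 was at 146 and 189 cRPKM in 1w TFCs-CpCs, against 1364 and 1069 cRPKM in 1w ECs (-2.49 ± 0.27, adjusted p = 0.00201). In all 3 genes the higher TFC-CpC library was severalfold below the lower EC library. UQCR-14, a small subunit of complex III whose exons are shared with an antisense gene, was at 124 and 130 cRPKM in 1w TFCs-CpCs, against 911 and 794 cRPKM in 1w ECs (-2.38 ± 0.38). ND-AGGG was at 12.4 and 16.2 cRPKM in 1w TFCs-CpCs, against 92.2 and 98.0 cRPKM in 1w ECs (-2.37 ± 0.52). COX7B was at 215 and 209 cRPKM in 1w TFCs-CpCs, against 1415 and 953 cRPKM in 1w ECs (-2.10 ± 0.27). The other small subunits that were lower lay between -2.06 (ND-MWFE) and -1.20 (UQCR-Q) and included levy and cype, the fly homologues of mammalian COX6A and COX6C.

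The 3 genes called higher in 1w TFCs-CpCs were 2 core subunits of complex I and 1 paralog. ND-51, which binds NADH and passes its electrons into complex I, was at 239 and 182 cRPKM in 1w TFCs-CpCs, against 109 and 98.0 cRPKM in 1w ECs (1.40 ± 0.26, adjusted p = 0.0151). ND-75, the largest core subunit, with iron-sulphur clusters on the path of those electrons, was at 110.1 and 106 cRPKM in 1w TFCs-CpCs, against 47.5 and 64.0 cRPKM in 1w ECs (1.31 ± 0.28, adjusted p = 0.0234). The ND-75 estimate was 0.96 by limma on log2(cRPKM + 1), just under the fold needed. Both genes had every TFC-CpC library above every EC library of that age. The third, the paralog COX7AL2, was at 3.96 and 2.22 cRPKM in 1w TFCs-CpCs and at 0 in both 1w EC libraries, at least 3.43-fold higher when the EC libraries are set at 3 counts each, and 7 of 9 alternatives lost its call (adjusted p 0.0177 to 0.440 over them, beside 0.0969). Conversely, ND-51L1, ND-51L2 and ND-24L had 0 counts in both 1w TFC-CpC libraries and 20 to 64 counts in 1w ECs, and were at least 75.8-fold, 70.8-fold and 32.6-fold lower.

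**Figure D4:**
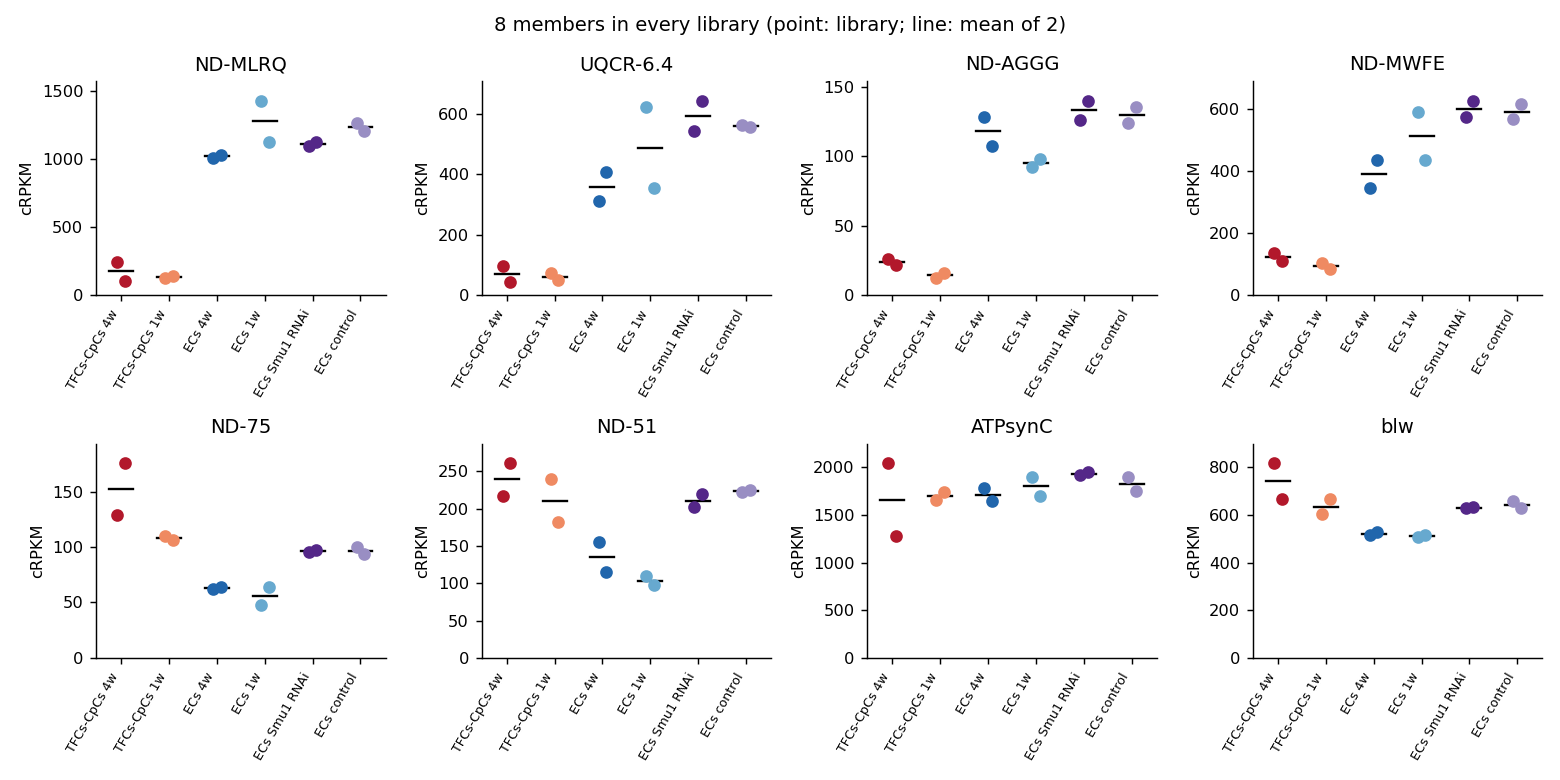
Expression of 8 respiratory chain genes (cRPKM, linear axes) in all 12 libraries (points, by group). ND-MLRQ, UQCR-6.4, ND-AGGG and ND-MWFE are lower in all 4 TFC-CpC libraries than in all EC libraries, ND-75 is higher in all 4 TFC-CpC libraries than in all EC libraries, and ATPsynC overlaps between them.

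The called genes were spread unevenly over the roles of subunits (roles were assigned after the values were seen and serve as description only). All 4 small subunits of complex III were called lower in 1w TFCs-CpCs, with a median of -1.89, whereas the 4 large ones (Cyt-c1, the Rieske iron-sulphur protein RFeSP, UQCR-C1 and UQCR-C2) had a median of 0.51. In complex I, 8 of 26 supernumerary subunits were called lower, with a median of -0.75, and the 7 core subunits had a median of -0.03, whose sign changed over the settings tried (-0.41 to 0.27). In complex V, 3 of 8 stalk and membrane subunits were called lower, with a median of -0.56, and the 4 subunits of the head, where ATP is made, had a median of 0.50. In complex IV, whose catalytic core is encoded by the mitochondrial genome, all 10 nuclear subunits had negative estimates and 5 were called, with a median of -1.12. As catalytic or large subunits were pooled the complex I core, the large complex III subunits, the complex V head and all of complex II, its membrane anchors included. Of these 19, 0 were called lower and 2 higher, with a median of 0.46 (0.11 to 0.60 over the settings). Of the 48 other subunits, 20 were called lower and 0 higher, with a median of -0.81 (-1.19 to -0.66).

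Several catalytic or large subunits had higher estimates in 1w TFCs-CpCs without being called. UQCR-C2, a large matrix-side subunit of complex III, was at 335 and 312 cRPKM in 1w TFCs-CpCs, against 225 and 213 cRPKM in 1w ECs (0.93 ± 0.23, adjusted p = 0.0346). SdhA was at 108 and 111 cRPKM in 1w TFCs-CpCs, against 66.2 and 78.7 cRPKM in 1w ECs (0.96 ± 0.25, adjusted p = 0.0425). blw, the alpha subunit of the ATP synthase head, was at 606 and 666 cRPKM in 1w TFCs-CpCs, against 509 and 517 cRPKM in 1w ECs (0.67 ± 0.23, adjusted p = 0.0826). All 3 passed the adjusted p and missed the 2-fold requirement. The ring subunit ATPsynC was at 1656 and 1739 cRPKM in 1w TFCs-CpCs, against 1898 and 1704 cRPKM in 1w ECs. Its estimate of 0.28 ± 0.24 had the opposite sign to the difference in mean cRPKM and ran from -0.08 to 0.43 over the alternatives, so no direction is given.

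Transcript length moved with these differences. The 17 respiratory chain genes whose longest annotated transcript is at most 700 bases had a median of -1.72 at 1w and 11 were called lower. The 28 genes of 701 to 1000 bases had -0.59 and 8 lower, the 9 genes of 1001 to 1500 bases had -0.03 and 1 lower, and the 13 longer genes had 0.67 and 0 lower. Over all genes tested, 34.5%, 20.4%, 13.6% and 16.0% of these classes were called lower, from the shortest to the longest. All genes tested showed the same order with a smaller step at the long end: their medians over these classes were -1.43, -0.65, -0.29 and 0.03. Across the 67 genes without a final L, Spearman's rho of the fold change with length was 0.79 (0.76 to 0.80 on leaving out a library), beside 0.12 across all 9977 genes with a length. These are correlations across genes of the same 4 libraries, not independent replicates. Role and length overlap: the small accessory subunits have short transcripts. Among the 7 other subunits with transcripts over 1000 bases the median was 0.12, with 1 called lower, and among the 41 with shorter ones it was -0.999, with 19 called lower. Of the catalytic or large subunits, 15 with transcripts over 1000 bases had a median of 0.49 and the 4 shorter ones -0.02. The part of length in the differences was not tested. The same libraries that carry them also differed in muscle RNA, at 55300 to 57600 cRPKM in 1w TFCs-CpCs against 657 to 1520 cRPKM in 1w ECs. Germline genes summed to 346 to 497 cRPKM in 1w TFCs-CpCs against 170 to 172 cRPKM in 1w ECs, and hemocyte genes to 356 to 391 cRPKM against 51.9 to 65.0 cRPKM. The hemocyte sum in 1w TFCs-CpCs was mostly Pxn, at 302 and 285 cRPKM, and Ppn, at 51.6 and 100 cRPKM. The listed genes Hml, NimC1, eater and Sr-CI were at 0 to 1.03 cRPKM there. srp ran the other way, at 1.65 and 6.13 cRPKM against 50.3 and 47.1 cRPKM in 1w ECs. Whether such cells were present, and their part in the differences, was not tested.

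**Figure D5:**
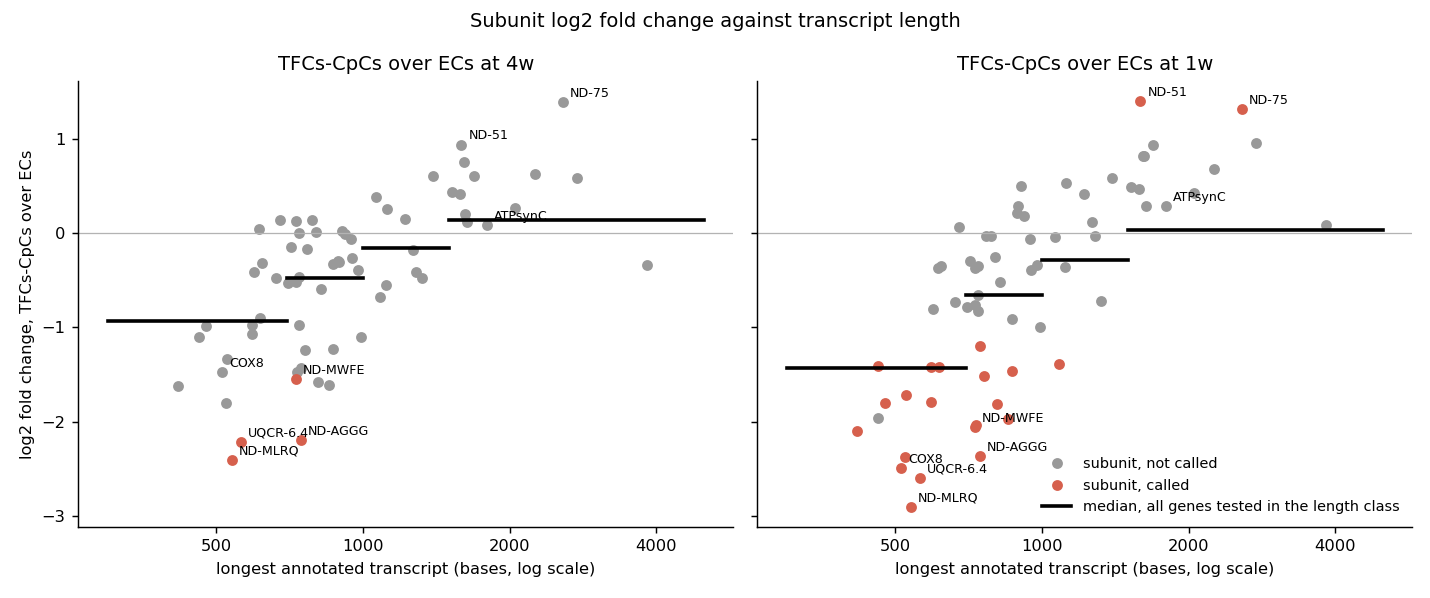
Log2 fold change of TFCs-CpCs over ECs (vertical axes) against the length of the longest annotated transcript (bases, log axis) for each respiratory chain gene without a final L (points), at 4w on the left and 1w on the right, with black lines for the median of all genes in each of 4 length classes. Points below 700 bases centre on -1.03 at 4w and -1.72 at 1w, and points above 1500 bases centre on 0.43 and 0.67.

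At 4w, 4 of 70 respiratory chain genes were called, where 6.12% of 9908 genes were, and all 4 were lower in TFCs-CpCs (2.37% of all genes were lower and 3.74% higher). Each of the 4 had also been called lower at 1w, in other libraries of the same cell populations. ND-MLRQ, encoded on chromosome 3L at 23339326 to 23345936 (BDGP6), was at 247 and 106 cRPKM in 4w TFCs-CpCs, against 1013 and 1034 cRPKM in 4w ECs (-2.40 ± 0.51, adjusted p = 0.0665). UQCR-6.4 was at 97.3 and 43.9 cRPKM in 4w TFCs-CpCs, against 310.1 and 407 cRPKM in 4w ECs (-2.21 ± 0.53, adjusted p = 0.0878). ND-AGGG, on 3L at 24976254 to 24977118, was at 26.0 and 21.4 cRPKM in 4w TFCs-CpCs, against 128 and 107 cRPKM in 4w ECs (-2.19 ± 0.53, adjusted p = 0.0878). ND-MWFE, a small accessory subunit known in mammals as NDUFA1, was at 135 and 111 cRPKM in 4w TFCs-CpCs, against 347 and 436 cRPKM in 4w ECs (-1.55 ± 0.38, adjusted p = 0.0913). In all 4 genes both TFC-CpC libraries lay below both EC libraries. ND-75, on chromosome X at 8248651 to 8251687, was at 129 and 176 cRPKM in 4w TFCs-CpCs, against 61.9 and 63.7 cRPKM in 4w ECs. Its estimate of 1.39 ± 0.37 had an adjusted p of 0.108, and 7 of 11 alternatives called it (adjusted p 0.00505 to 0.595 over them).

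The errors at 4w were wider than at 1w. The median over the 70 genes was -0.37, beside -0.03 over all genes. The small subunits of complex III had -1.61 and the large ones 0.35, and the 10 nuclear subunits of complex IV had -1.02. The complex V head had 0.44 and its stalk and membrane part -0.37 (-0.94 to 0.06 over the settings), the complex I core 0.38 and its supernumerary subunits -0.41 (-0.80 to -0.0011), and complex II 0.08. By median, the complex I core lay below complex II at 1w and above it at 4w, but their ranges over the settings overlapped at both ages. At 1w the core ran from -0.41 to 0.27 and complex II from 0.09 to 0.63. At 4w the core ran from -0.01 to 0.49 and complex II from -0.05 to 0.19. The catalytic or large subunits had a median of 0.27 (0.04 to 0.39) and the 47 tested others -0.53 (-1.13 to -0.19). By transcript length, from the shortest class to the longest, the medians were -1.03, -0.43, -0.18 and 0.43, beside -0.93, -0.47, -0.16 and 0.14 over all genes, and rho was 0.68 over 66 genes. In cRPKM, 39 of the 70 genes had both TFC-CpC libraries below both EC libraries (32.0% of all genes did) and 8 had both above (24.2%). ND-51, on 2L at 6060842 to 6062757, was at 217 and 261 cRPKM in 4w TFCs-CpCs, against 155 and 115.5 cRPKM in 4w ECs (0.93 ± 0.38, adjusted p = 0.213). The estimates turned on the 4w TFC-CpC libraries. Without replicate 1 of these the median was -0.80 (-0.11 over all genes), and without replicate 2 it was -0.015 (-0.03 over all genes). Without 4w EC replicate 1 or 2 it was -0.32 or -0.38 (0.04 over all genes in each). The ratio of ND-75 to ND-MLRQ in cRPKM, a pair picked from these values, was 0.521 and 1.65 in 4w TFCs-CpCs and 0.893 and 0.752 in 1w TFCs-CpCs, against 0.0611 and 0.0616 in 4w ECs and 0.0332 and 0.0569 in 1w ECs.

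The cell population by age interaction, the ageing effect in TFCs-CpCs minus that in ECs, was tested directly. None of 79 genes was called, where 2.47% of 11452 genes were (0.961% higher and 1.51% lower), and 1 had an unadjusted p below 0.05, the paralog ND-51L2 (45 and 0 counts in 4w TFCs-CpCs, 0 counts in 1w TFCs-CpCs, 0 and 8 counts in 4w ECs, 55 and 64 counts in 1w ECs). DESeq2 called this gene and limma called 0. The median interaction was 0.09, beside 0.13 over all genes. It was -0.38 without 4w TFC-CpC replicate 1 and 0.50 without replicate 2. All 4 complex II genes had negative estimates, with a median of -0.50, and COX8 had 0.94 ± 0.55.

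The subunits made from the mitochondrial genome, the partners of these nuclear genes, had lower summed levels in TFCs-CpCs than in ECs. Their 13 messages summed to 49500 and 27900 cRPKM in 4w TFCs-CpCs and 52900 and 57500 cRPKM in 1w TFCs-CpCs, against 115000 and 95300 cRPKM in 4w ECs and 95400 and 94800 cRPKM in 1w ECs. At each age 4 of 13 were called lower, where 2.37% of all genes were at 4w and 17.2% at 1w, and mt:ND3, a complex I subunit, led at both: 197 and 163 cRPKM in 4w TFCs-CpCs against 3092 and 3216 cRPKM in 4w ECs (-4.01 ± 0.42), and 283 and 363 cRPKM in 1w TFCs-CpCs against 4269 and 2873 cRPKM in 1w ECs (-3.09 ± 0.29). The estimates of the 13 reached up to -0.26 at 4w and 0.57 at 1w. mt:ND4, another complex I subunit, was at 4395 and 4341 cRPKM in 1w TFCs-CpCs, against 4251 and 3576 cRPKM in 1w ECs. Ageing moved none of the 13 past the test, with a median of -0.91 in TFCs-CpCs and 0.18 in ECs, and Smu1 RNAi had -0.04.

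Other genes of mitochondrial energy metabolism were tested as lists fixed alongside the respiratory chain genes. Their counts at 1w stand beside 14.0% of all genes called higher and 17.2% called lower. Of 15 tested genes of the TCA cycle, 2 were lower in 1w TFCs-CpCs, mAcon2 and Fum2. Both were low in 1w ECs too, mAcon2 at 0.62 and 0.50 cRPKM and Fum2 at 3.39 and 6.14 cRPKM. The other called genes, 5 in all, were higher. The citrate synthase kdn was the largest, at 187 and 210.3 cRPKM in 1w TFCs-CpCs against 20.7 and 31.8 cRPKM in 1w ECs (3.27 ± 0.33), and at 110.5 and 77.6 cRPKM in 4w TFCs-CpCs against 2.20 and 10.5 cRPKM in 4w ECs (4.01 ± 0.77). Of 10 tested electron carriers and transporters, 3 were higher and 4 lower at 1w. Cyt-c-d, 1 of the lower ones, was at only 1.56 and 1.62 cRPKM in 1w ECs and at 0 in both 1w TFC-CpC libraries. The main ADP/ATP exchanger sesB was at 731 and 788 cRPKM in 1w TFCs-CpCs against 2164 and 2201 cRPKM in 1w ECs (-1.16 ± 0.24), whereas Gpo1, the glycerophosphate dehydrogenase that feeds electrons into the chain, was higher at 1w (2.53 ± 0.32) and at 4w (2.19 ± 0.45). Of 16 regulators of mitochondrial number and form, 4 were higher at 1w, among them the fusion protein Marf (2.63 ± 0.32) and the kinase Pink1 (2.15 ± 0.24), and 2 were lower, clu and Myc. Of 11 glycolysis genes, 5 were higher at 1w, led by Pfk (2.60 ± 0.30), and 2 at 4w, the lactate dehydrogenase Ldh (3.61 ± 0.77) and Pgi (2.03 ± 0.49). Over 11 alternatives, 7 lost the call of Miro, a regulator of mitochondrial transport, and 6 each lost those of the glycolytic enzyme Tpi and the fumarase Fum2. Of 11 tested assembly factors and related genes, 1 was lower at 1w, mtSSB, which coats single-stranded mitochondrial DNA.

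In the ageing comparisons and after Smu1 RNAi these lists gave 1 call, Mpcp1, a phosphate carrier, at 4.81 and 0.90 cRPKM in 4w TFCs-CpCs against 54.9 and 57.7 cRPKM in 1w TFCs-CpCs (-4.53 ± 0.89, adjusted p = 0.0672 by edgeR). Muscle genes summed to 1980 to 2230 cRPKM in 4w TFCs-CpCs and 55300 to 57600 cRPKM in 1w TFCs-CpCs, and their part in this difference was not tested.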

How the data were processed

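Counts per gene, deposited by the authors, and cRPKM (RPKM corrected for mappability), made by the authors with vast-tools for dm6 from strand-specific libraries of amplified cDNA, were used as deposited. The tables list 14489 genes, of which 763 had no value. Libraries were grouped by their labels. Counts were tested with edgeR 4.0.16 (R 4.3.3; quasi-likelihood, TMM) on genes reaching 10 counts in 2 or more fitted libraries, and a gene was called where it differed 2-fold or more with a p below 0.1 after Benjamini-Hochberg adjustment over the genes tested. Alternatives were DESeq2 1.42.0, limma 3.58.1 on log2(cRPKM + 1) and log2(cRPKM + 0.1), median-of-ratios scaling, no filter, all 12 libraries in one fit, a replicate block, an adjusted p below 0.05 and leaving out each library. The fits were tested on simulated data with some genes set to change by 2 or 4 log2 units. At 2 units they called 41.5% of these for ageing in TFCs-CpCs, 51.1% for ageing in ECs and 86.0% for Smu1 RNAi. For TFCs-CpCs over ECs they called 48.4% at 1w and 27.1% at 4w. At 4 units the 5 comparisons gave 68.8% to 100%. False calls ran from 2 to 15 per comparison. A gene without a call may thus still differ. Positions, transcript lengths and overlaps came from the BDGP6 annotation. Genes named were the called ones with the largest differences (at most 6 a direction), those with the smallest p where fewer than 4 were called, 19 subunits given in every comparison, the 5 highest and 5 lowest means, paralog pairs, and called genes of the other lists. The respiratory chain genes, lists and tests were chosen with earlier results of these data known. cRPKM were compared between libraries as normalized by the authors; bounds against 0 used 3 counts per library, which covers counting error only.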

Additional observations from a re-analysis of the deposited data

How the results depend on the processing

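No called result changed direction under any alternative. The calls between TFCs-CpCs and ECs at 4w moved most: 4 respiratory chain genes were called, against 0 at an adjusted p below 0.05, 16 by DESeq2, 12 without the filter, 19 with all 12 libraries in one fit, 14 by limma with either pseudocount, and 0 to 29 on leaving out a library. At 1w 26 were called (31.2% of all genes). Limma called 35 with either pseudocount, 33 of them lower (32.2% of all genes called with 1 and 35.5% with 0.1). All 12 libraries in one fit gave 29 (40.1% of all genes). The median log2 fold change at 1w was -0.80 and -0.83 by limma with a pseudocount of 1 and 0.1 (all genes -0.43 and -0.54), and -0.65 to -0.39 on leaving out a library. At 4w it was -0.80 to -0.015 on leaving out a library. For ageing the median was -0.43 to 0.32 in TFCs-CpCs and -0.15 to -0.05 in ECs, and for Smu1 RNAi -0.061 to 0.085. The interaction median was 0.38 and 0.34 by limma and -0.38 to 0.50 on leaving out a library, and DESeq2 called 1 gene. Ageing, Smu1 RNAi and the interaction gave 0 calls whichever library was left out.

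As a share of summed cRPKM in place of counts, the respiratory chain genes took 2.54% in 4w TFCs-CpCs and 2.42% in 1w TFCs-CpCs. They took 2.90% in 4w ECs, 2.98% in 1w ECs, 3.81% in Smu1 RNAi ECs and 3.87% in control ECs. Without ATPsynC the share of counts was 1.25% in 1w TFCs-CpCs, 1.69% in 4w ECs, 1.82% in 1w ECs, 2.33% in Smu1 RNAi ECs and 2.34% in control ECs.

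With the replicate number as a block, 0 respiratory chain genes were called for ageing in either population, Smu1 RNAi or the interaction, 24 at 1w and 5 at 4w. Over all genes the block called 650 for ageing in TFCs-CpCs (479 without it), 18 in ECs (11), 259 for Smu1 RNAi (110), 2658 at 1w (3172) and 690 at 4w (606). Same-numbered libraries deviated together with correlations of -0.04, -0.04 and 0.21 for ageing in TFCs-CpCs, in ECs and for Smu1 RNAi, over 2 pairs each. Over the alternatives that keep every library, calls over all genes ran from 287 to 1665 for ageing in TFCs-CpCs, 7 to 113 in ECs, 1 to 259 for Smu1 RNAi, 1987 to 4761 at 1w, 224 to 2608 at 4w and 119 to 931 for the interaction (283). The paralogs, at few counts, are limited by counting error. The cause of these movements was not tested.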
